A study of Mus musculus with 10 samples.

Results

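The keratin family was examined in nasal respiratory epithelium that had been cut out of E16.5 mouse embryos. Its members were all genes whose single gene symbol on the platform was Krt followed by a number with an optional letter, with keratin-associated proteins left out. These were 53 of the 22180 genes on the array. They fell into 5 simple-epithelial keratins, 3 basal keratins, 14 keratins of squamous epithelia, 24 keratins of hair and its follicle and 7 others, and the assignment rests on where each keratin is known to be made. Krt5, the basal partner of Krt14, was on the array only as a probe set that also carried the symbol Krt6a, so it is not a member and has no value here.

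The TKO embryos, 5 in number (2 female, 3 male), were homozygous for the loss of 3 microRNA loci, written miR-34a-/-, miR-34b/c-/- and miR-449a/b/c-/-. They were set against 5 wild-type (WT) embryos (4 female, 1 male), with 1 array each. The WT male was WT 3, and the TKO females were TKO 1 and TKO 3. The epithelium had been fixed in formalin, embedded in paraffin and cut from sections with a laser. The values had been normalized by RMA and are log2 intensities, so a difference of 1 is a 2-fold difference in signal. The labels name neither the strain nor the litters, so the p-values measure the spread between these embryos, some of which may be littermates. The levels of different genes are not set against each other, because each probe set has its own brightness.

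Keratins are the intermediate filament proteins of epithelial cells. A filament is built from pairs of a type I and a type II keratin, and the pair a cell makes marks its kind: Krt8 with Krt18 and Krt19 in simple and ciliated epithelia, Krt5 with Krt14 in basal cells, Krt1 with Krt10 in cornifying epidermis, and Krt4 with Krt13 in the squamous lining of mouth and oesophagus. In the nose, the ciliated respiratory epithelium meets squamous epithelium towards the nostril.

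The microRNAs removed in the TKO embryos share a seed, bases 2 to 8, which is in capitals in the mature sequences below. They are shown because they define the genotype, and are RefSeq sequences (GRCm38.p6).
miR-34a-5p: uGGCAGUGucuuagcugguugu
miR-34b-5p: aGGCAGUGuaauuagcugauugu
miR-449a-5p: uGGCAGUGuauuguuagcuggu
miR-449c-5p: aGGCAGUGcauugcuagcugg

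The deleted loci were read first, as a check of the labels. The Mir449a probe set reached at most 5.76 in the TKO embryos, against at least 6.86 in WT, and Mir449c at most 4.39 in TKO against at least 6.80 in WT. Mir449b (at most 12.08 in TKO, at least 12.13 in WT) and Mir34b (at most 5.57 in TKO, at least 5.61 in WT) were separated by little. The dim Mir34a (at most 3.75 in TKO, at least 3.34 in WT) and Mir34c (at most 3.26 in TKO, at least 3.20 in WT) overlapped, so these 2 check nothing. Of 14 multiciliated cell markers 11 were tested, and their mean level lay between 9.52 and 9.78 in TKO and between 9.52 and 9.97 in WT embryos. The 13 tested of 14 epithelial identity markers averaged 8.65 to 8.84 in TKO and 8.71 to 8.98 in WT. Markers of other cells had signal in both genotypes: the mean level per embryo was 6.90 to 8.24 in TKO and 7.21 to 8.17 in WT for 14 mesenchyme markers, and 5.13 to 5.76 in TKO and 5.18 to 5.93 in WT for 8 endothelium markers. It was 5.73 to 6.47 in TKO and 5.53 to 6.34 in WT for 9 leukocyte markers, and 5.84 to 6.37 in TKO and 5.83 to 6.11 in WT for 7 cartilage markers. The 12 olfactory neuron markers varied most, from 5.76 to 7.40 in TKO and 5.96 to 8.12 in WT. Skeletal muscle markers, 10 in number, averaged 5.19 to 5.97 in TKO and 5.21 to 6.75 in WT. With limma, 1 of these mesenchyme, 1 of the endothelium, 1 of the muscle and 1 of the multiciliated markers were lower in TKO (Col3a1, Tie1, Tnnt3 and Cfap43, with log2 changes of -0.48, -0.39, -1.01 and -0.55), against 1.12% of all genes, and none of the other listed markers passed. At an unadjusted p below 0.05, 8 of 10 muscle and 6 of 14 mesenchyme markers were lower in TKO, against 7.72% of all genes. So were 4 of 11 multiciliated, 2 of 8 endothelium, 2 of 13 epithelial identity and 1 of 9 leukocyte markers. By the same cut 1 multiciliated and 1 of 7 cartilage markers were higher, and none of the 12 olfactory neuron markers passed. The call of Tie1 was lost in 13 of 21 alternatives, of Tnnt3 in 7 of 21, of Col3a1 in 5 of 22 and of Cfap43 in 3 of 22, and without the sex term the change of Col3a1 was -0.24 (limma adjusted p = 0.50). The next genes of these lists had limma adjusted p from 0.0620 (Acta1, a muscle actin gene, log2 change -1.96) to 0.674 (Cnga2, an olfactory channel gene, 0.27).

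No keratin passed the test between the genotypes. Of the 53 members, 45 passed the filter on dim genes (a mean of at least 4.58, the 25th percentile of all genes), and with limma 0 of these 45 passed an adjusted p of 0.05, against 5.51% of all 16635 genes tested. At an unadjusted p below 0.05 there were 7 keratins (15.6%), against 20.9% of all genes. Of these 7, 1 was higher and 6 were lower in TKO. Of all 16635 genes, 2199 were higher and 1284 (7.72%) lower by the same cut. For no keratin were the 5 TKO arrays separate from the 5 WT arrays, while the genotypes did not overlap for 7.60% of all genes. The median log2 change of the 45 was -0.11, with 34 below 0, and that of all genes was close to 0, with 50.2% below 0. In the same samples, 6 of the 45 keratins (13.3%) had a spread among embryos of the same genotype above 0.5 on the log2 scale, against 1.75% of all genes. The 6 were Krt1, Krt10, Krt77, Krt13, Krt6a and Krt17, and none of them was a simple or a hair keratin.

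Of the simple keratins, Krt8, Krt18 and Krt19 were nearly constant, while Krt7 and Krt20 varied more. Krt8, the type II keratin of simple epithelia, was at 11.60, 11.69, 11.61, 11.48 and 11.62 in TKO 1 to TKO 5, and at 11.55, 11.58, 11.59, 11.59 and 11.56 in WT 1 to WT 5. All 10 arrays lay within 0.21, and its SD within genotypes was among the lowest 0.914% of all genes. The log2 change was 0.02 (fold 1.02, 95% confidence interval 0.935 to 1.11, limma adjusted p = 0.851). Its type I partner Krt18 was at 11.14 ± 0.09 in TKO and 11.12 ± 0.04 in WT (SD, n = 5 each), with a fold of 1.02 and an interval of 0.930 to 1.12. A second Krt18 probe set gave 10.84 ± 0.18 in TKO and 10.78 ± 0.10 in WT. Krt19, a type I keratin of simple and ductal epithelia that lacks the usual tail, was at 9.83 ± 0.09 in TKO and 9.86 ± 0.06 in WT, with an interval of 0.874 to 1.07. Krt7, the type II keratin of ducts, was at 8.33 ± 0.10 in TKO and 8.44 ± 0.14 in WT, with an interval of 0.810 to 1.06. Its SD within genotypes was 0.123, where the median of all genes was 0.152. The 4 intervals together ran from 0.810 to 1.12, so they hold only small folds in either direction. Krt20, known from intestine and urothelium, was dim and less even: TKO embryos read 5.04, 4.61, 4.73, 4.81 and 5.99, and WT embryos read 5.42, 5.13, 4.72, 5.14 and 4.99. TKO 5 was the highest and WT 1 the next, and the interval ran from 0.662 to 1.45.

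**Figure D1:**
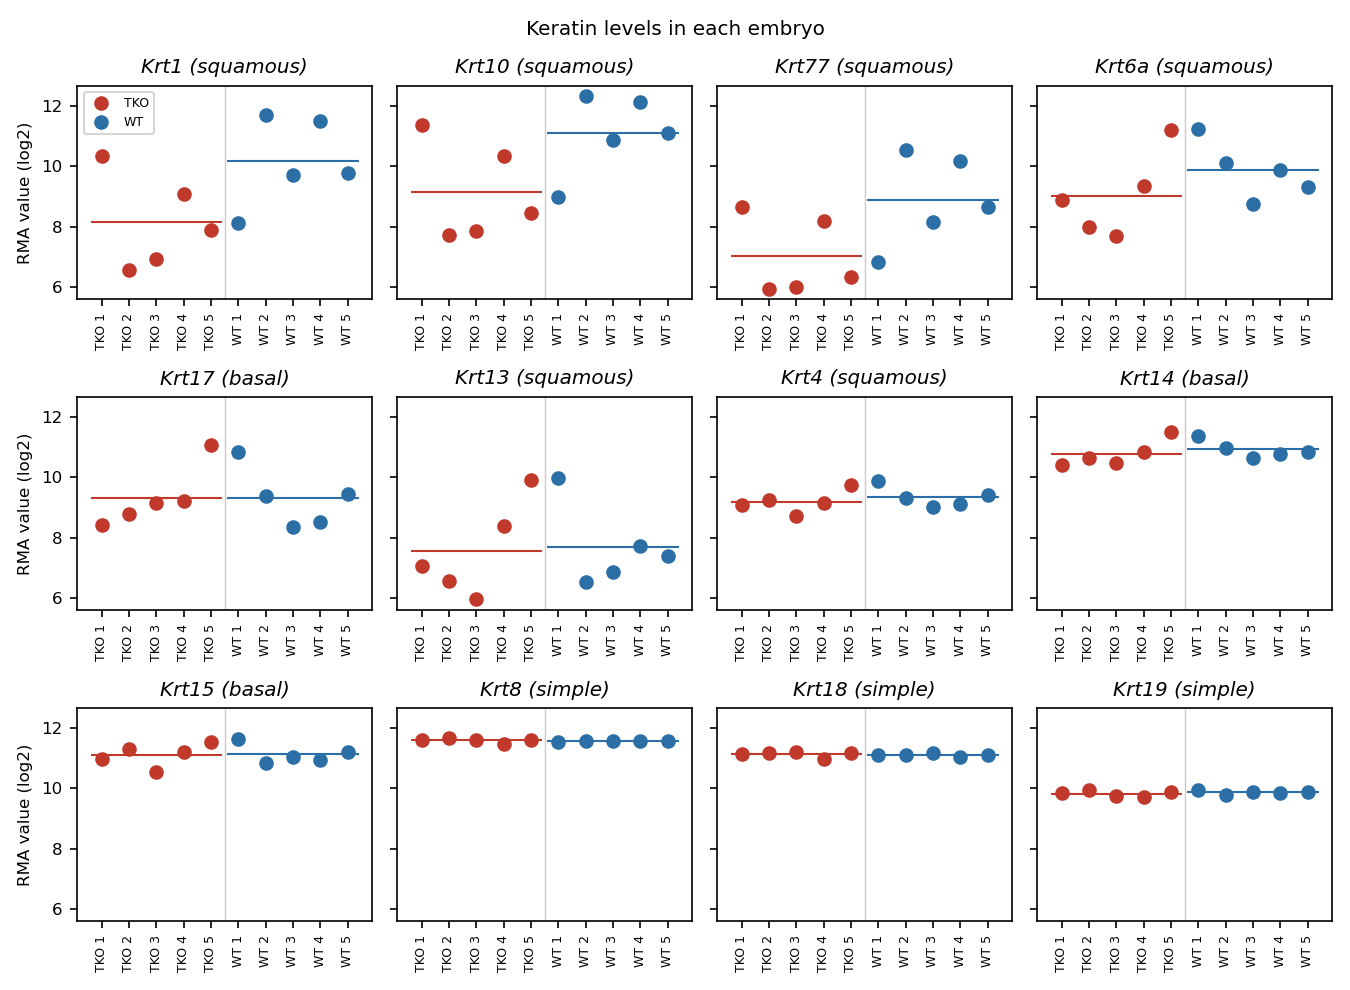
RMA values (log2, vertical axis, the same in every panel) of 12 keratins in each of the 10 embryos (horizontal axis), TKO in red on the left and WT in blue on the right, with a line at each genotype's mean. Krt8, Krt18 and Krt19 form flat rows, Krt1, Krt10 and Krt77 share one scatter with WT 2 and WT 4 highest, and Krt6a, Krt17 and Krt13 share another with TKO 5 and WT 1 highest.

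The epidermal keratins Krt1, Krt10 and Krt77 had the widest ranges of the family from the lowest to the highest embryo. Krt1 and Krt10 form the type II and type I pair of cells that have left the basal layer of cornifying epidermis, and Krt77 is a type II keratin of epidermis. Krt1 was at 10.34, 6.55, 6.91, 9.09 and 7.88 in TKO 1 to TKO 5, and at 8.13, 11.70, 9.73, 11.50 and 9.77 in WT 1 to WT 5. Krt10 was at 11.38, 7.71, 7.86, 10.34 and 8.47 in TKO, and at 8.98, 12.35, 10.88, 12.15 and 11.12 in WT. Krt77 was at 8.66, 5.92, 5.99, 8.20 and 6.31 in TKO, and at 6.81, 10.55, 8.16, 10.18 and 8.66 in WT. All 3 were highest in WT 2 and WT 4 and lowest in TKO 2 and TKO 3, and the genotypes overlapped widely, since TKO 1 exceeded 3 of the 5 WT embryos for Krt1 and Krt10. From the lowest to the highest embryo the signal differed 35.5-fold for Krt1, 25.1-fold for Krt10 and 24.7-fold for Krt77. Their SDs within genotypes, 1.52, 1.49 and 1.42, ranked 24, 28 and 32 from the top among all 16635 genes tested, and Krt13 ranked 29.

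Between genotypes the means were lower in TKO, at 8.15 ± 1.57 against 10.17 ± 1.47 in WT for Krt1, 9.15 ± 1.63 against 11.10 ± 1.34 for Krt10, and 7.02 ± 1.31 against 8.87 ± 1.53 for Krt77 (SD, n = 5 each). With sex in the model the folds were 0.300 (95% interval 0.0830 to 1.08), 0.305 (0.0856 to 1.08) and 0.333 (0.100 to 1.11), with limma adjusted p of 0.270, 0.271 and 0.282. The differences were thus within the spread among embryos, and intervals this wide hold both no difference and a difference of several fold. The sexes overlapped: Krt10 ran from 7.86 to 12.35 in the 6 females and from 7.71 to 10.88 in the 4 males. In such bulk samples, fewer cells of a type and less RNA per cell cannot be told apart.

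The genes of the cornified envelope, the protein shell of the outermost squamous cells, were highest and lowest in the same embryos. The list held 31 genes, of which 27 were tested. Their mean level was 7.35, 6.05, 6.39, 7.30 and 6.83 in TKO 1 to TKO 5, and 6.85, 7.94, 7.29, 8.29 and 7.04 in WT 1 to WT 5. WT 4 and WT 2 were the highest and TKO 2 and TKO 3 the lowest, as for Krt10. Of the 27 genes, 22 (81.5%) had their highest value in WT 2 or WT 4, as did 19.0% of all genes tested. The list's median log2 change was -0.59 with 25 below 0, but none of the 27 was called lower and 1 was called higher, the protease inhibitor gene Cstb (11.02 ± 0.13 in TKO, 10.72 ± 0.08 in WT, log2 change 0.30, limma adjusted p = 0.0416). The transglutaminase gene Tgm1 (log2 change -0.77, limma adjusted p = 0.0929) and the caspase gene Casp14 (-0.71, limma adjusted p = 0.152) came next and did not pass. The part of such squamous cells in the levels of Krt1, Krt10 and Krt77 was not tested.

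**Figure D2:**
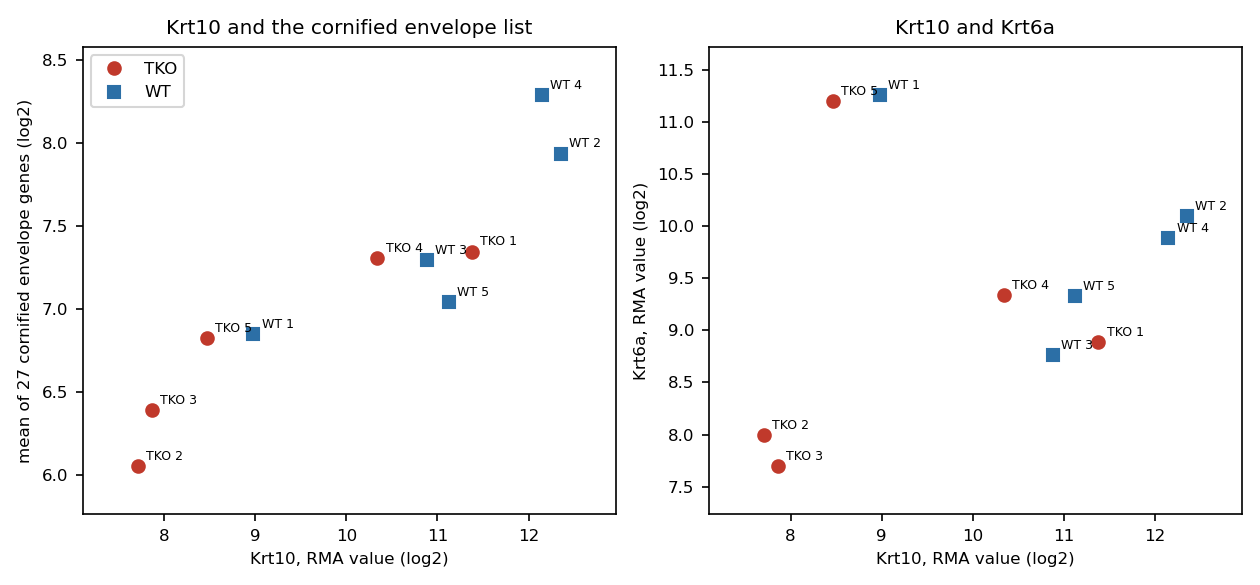
Left, the RMA value of Krt10 (log2, horizontal axis) against the mean RMA value of 27 cornified envelope genes (log2, vertical axis), and right, Krt10 against Krt6a, with 1 point per embryo, TKO as red circles and WT as blue squares. On the left the embryos run from TKO 2 and TKO 3 at the bottom to WT 2 and WT 4 at the top, and on the right TKO 5 and WT 1 stand apart with the highest Krt6a at low Krt10.

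Krt1, Krt10 and Krt77 moved together although Krt10 lies in the type I cluster and the other two in the type II cluster, where they are neighbours. Across the 10 embryos Krt1 and Krt10 had the same rank order (Pearson r = 0.988, Spearman rho = 1, permutation p = 1e-05 for both, the smallest that 100000 resamples can give, and 4.5e-05 after adjustment over 9 pairs). Krt77 and Krt10 had r = 0.980 and rho = 0.988, with the same p. Leaving out the 2 embryos farthest from the median gave 0.977 for Krt1 with Krt10 and 0.979 for Krt77 with Krt10. Next to Krt77 in the cluster, Krt76, a keratin of the palate, had an SD within genotypes of 0.182, and on the other side of Krt1, Krt2, a keratin of the upper epidermis, had 0.161. Both read close to the filter, where a small spread may be that of probe sets with no signal of their gene, which was not tested.

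The 120 bases before the start of Krt10 and Krt77, and of the even Krt8 and Krt18, are shown as examples from genes of wide and of narrow spread. They are RefSeq sequences of GRCm38.p6, at chr11:99389365-99389484 (minus strand) for Krt10, chr15:101869706-101869825 (minus strand) for Krt77, chr15:102004343-102004462 (minus strand) for Krt8 and chr15:102028096-102028215 (plus strand) for Krt18, and capitals mark TATAAA or TATATA.
Krt10: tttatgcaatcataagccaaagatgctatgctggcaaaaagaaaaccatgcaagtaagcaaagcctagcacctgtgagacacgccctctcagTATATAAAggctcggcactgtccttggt
Krt77: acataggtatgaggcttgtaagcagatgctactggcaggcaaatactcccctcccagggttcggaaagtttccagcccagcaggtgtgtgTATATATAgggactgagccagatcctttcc
Krt8: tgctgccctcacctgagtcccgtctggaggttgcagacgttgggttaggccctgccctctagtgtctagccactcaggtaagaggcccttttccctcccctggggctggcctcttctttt
Krt18: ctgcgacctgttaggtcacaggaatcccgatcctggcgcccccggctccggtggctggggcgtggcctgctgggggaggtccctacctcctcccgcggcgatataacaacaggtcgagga

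The motif began 28 bases before the start in Krt10, where TATATA and TATAAA overlap, and 30 bases before it in Krt77, where 2 copies of TATATA overlap. Neither motif was found on either strand in the 120 bases of Krt8 or Krt18, nor in those of the 2 start sites of Krt13, whose SD of 1.47 was above that of Krt77. Only exact copies of the motifs were searched, here and in the counts below, and near matches were not counted. Krt18 and Krt13 held such near matches in the last 50 bases, so neither can be taken as free of a related sequence. No promoter sequence was at hand for Krt1, Krt6a and Krt17, so of the most variable keratins only Krt10, Krt77 and Krt13 could be read. These are too few to tell whether the motifs go with a wide spread, which was not tested. Promoter sequences were at hand for 35 of the 53 keratins, as 36 promoters. In the last 50 bases before the start, on either strand, TATAAA was present in 15 of these 36 (41.7%), against 3.50% of 32851 promoters of all genes, and TATATA in 8 of 36 (22.2%), against 1.35%. Of the 15 holders of TATAAA, 11 were hair keratins, among them Krt31 and Krt34, and Krt25, Krt26 and Krt28, which lay below the filter. Krt12 and Krt76, with SDs of 0.178 and 0.182, held it as well. Both were dim, at means of 5.14 in TKO and 5.19 in WT for Krt12, and 4.91 and 4.82 for Krt76. Their small spread may be that of probe sets with no signal of their gene, which was not tested. The AP-1 motif TGANTCA was present in the 250 bases before the start of 2 of the 36 promoters (5.56%), both of Krt13, against 6.75% of all promoters.

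A different pair of embryos was highest for Krt6a, Krt17 and Krt13. Krt6a is a type II keratin of hair follicles, tongue and wounded epidermis, Krt17 a type I keratin of appendages and of basal cells under stress, and Krt13 the type I keratin of mucosal squamous epithelium. Krt6a was at 8.88, 8.00, 7.70, 9.34 and 11.20 in TKO 1 to TKO 5, and at 11.26, 10.10, 8.76, 9.88 and 9.33 in WT 1 to WT 5. Krt17 was at 8.42, 8.80, 9.15, 9.20 and 11.08 in TKO, and at 10.86, 9.37, 8.35, 8.52 and 9.44 in WT. Krt13 was at 7.06, 6.55, 5.94, 8.37 and 9.90 in TKO, and at 9.97, 6.53, 6.85, 7.73 and 7.39 in WT. TKO 5 and WT 1, a male and a female, were the 2 highest embryos for each of the 3, and both were among the 4 lowest for Krt1, Krt10 and Krt77. They also held the highest value of 10 of the 13 epithelial identity markers, against 15.8% of all genes, and the part of this in the keratin values was not tested. The fold in TKO over WT was 0.531 for Krt6a (95% interval 0.191 to 1.47, limma adjusted p = 0.491), 0.998 for Krt17 (0.415 to 2.40, adjusted p = 0.999) and 0.765 for Krt13 (0.220 to 2.66, adjusted p = 0.841). The probes of Krt6a and its close copy Krt6b may share signal, which was not tested. Krt6b read 5.91 ± 0.44 in TKO and 5.91 ± 0.39 in WT.

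TKO 5 and WT 1 were also the 2 highest for Krt14, Krt15 and Krt4, and for Krt6b, the simple keratin Krt20 and the hair keratin Krt75. Krt14, the type I keratin of basal cells, was at 10.41, 10.65, 10.46, 10.83 and 11.52 in TKO, and at 11.38, 10.99, 10.66, 10.79 and 10.85 in WT, with a fold of 0.848 (95% interval 0.617 to 1.16, limma adjusted p = 0.575). Krt15, another type I keratin of basal cells, averaged 11.12 ± 0.38 in TKO and 11.14 ± 0.31 in WT, with a fold of 0.905 (0.687 to 1.19, limma adjusted p = 0.715). Krt4, the partner of Krt13, averaged 9.18 ± 0.38 in TKO and 9.35 ± 0.33 in WT (0.858, interval 0.628 to 1.17, limma adjusted p = 0.597). With 1 embryo left out the log2 change ran from -0.55 (without WT 3) to -0.013 (without TKO 3) for Krt4, and from -0.56 (without WT 3) to -0.11 (without TKO 1) for Krt14. The pairs of this group were less tight than Krt1 and Krt10, and rested on these embryos. Krt4, Krt6a and Krt13 were singled out after their values were seen, so the p-values of their pairs are not independent of that choice. Krt6a and Krt17 had r = 0.756 (rho = 0.661, permutation p = 0.0122 and 0.0446, adjusted 0.0257 and 0.100), and r was 0.166 without WT 1 and TKO 5. Krt4 and Krt13 had r = 0.831 (rho = 0.612, permutation p = 0.00396 and 0.0669, adjusted 0.0119 and 0.120), and 0.394 without the same embryos. For Krt14 and Krt15 r was 0.737 (rho = 0.527, permutation p = 0.0143 and 0.122, adjusted 0.0257 and 0.183), and 0.310 without them.

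The levels of Krt10 and Krt6a showed no clear relation (r = 0.184, rho = 0.321, permutation p = 0.607 and 0.369, adjusted 0.607 and 0.415, and r = -0.624 without TKO 2 and TKO 3). Among the simple keratins, Krt8 and Krt18 had r = 0.739 (rho = 0.794, permutation p = 0.0215 and 0.00864, adjusted 0.0323 and 0.0259, and 0.508 without TKO 4 and TKO 2). Krt8 with Krt19 (r = 0.538, rho = 0.212) and Krt7 with Krt19 (r = 0.597, rho = 0.467) missed the threshold in permutation tests, at adjusted p of 0.117 and 0.558 for the first pair and 0.0874 and 0.229 for the second.

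**Figure D3:**
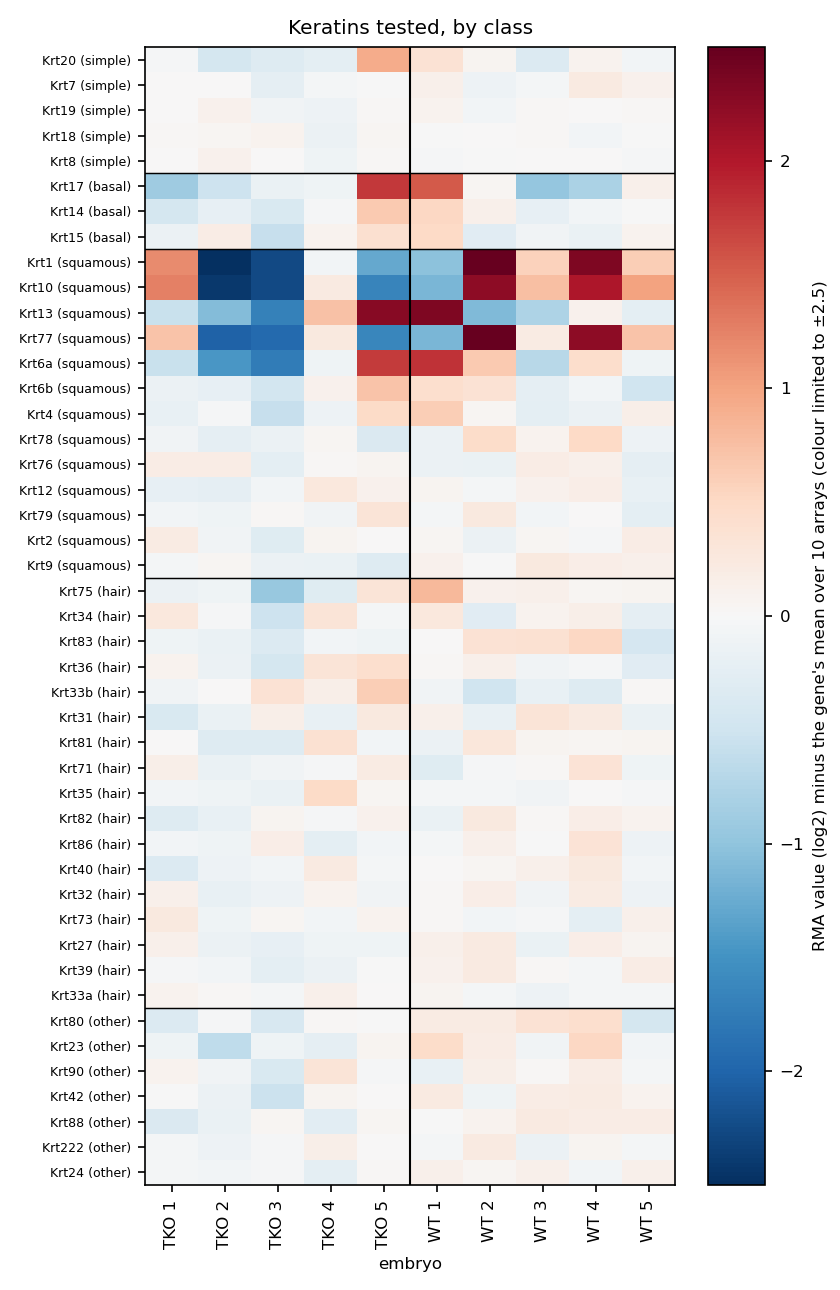
RMA value minus the gene's mean over the 10 arrays (log2, colour, limited at both ends of the bar) for the 45 keratins tested (rows, by class, the most variable first) in each embryo (columns, TKO left of WT). The strong colours lie in 6 rows, Krt1, Krt10, Krt77, Krt13, Krt6a and Krt17, while the rows of simple and hair keratins are pale.

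The other squamous keratins had smaller spreads. Krt9, known from thick skin of palms and soles, was dim, at 5.31, 5.41, 5.22, 5.21 and 5.06 in TKO and 5.48, 5.37, 5.62, 5.54 and 5.50 in WT. It was lower in TKO by 0.27 on average, and its arrays overlapped (fold 0.828, 95% interval 0.715 to 0.960, limma adjusted p = 0.134). Krt78, a type II keratin of upper squamous layers, was at 5.64 ± 0.16 in TKO and 5.95 ± 0.31 in WT, with WT 2 and WT 4 highest at 6.25 and 6.29 (limma adjusted p = 0.337). The remaining Krt2, Krt12, Krt76 and Krt79 had log2 changes between -0.11 and 0.03. Krt16, which pairs with Krt6a in wounded epidermis, lay below the filter, at 3.44 to 4.47 in TKO and 3.66 to 4.03 in WT. Of the 13 tested members of the class 11 had a change below 0, and the class's median change was -0.27, with -0.11 without WT 1 and -0.14 without TKO 3.

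The hair keratins had low signals and no SD within genotypes above 0.5, though the class's median SD of 0.186 was above the 0.152 of all genes. Of 24 members 17 were tested, and 7 lay below the filter (Krt25, Krt26, Krt28, Krt72, Krt74, Krt84 and Krt87). Their mean level per embryo was 5.40 to 5.65 in TKO and 5.50 to 5.67 in WT, and the class's median change was -0.08, with 11 of 17 below 0. Krt75, a type II keratin of the companion layer of the hair follicle, had the smallest p. It was at 5.96, 5.99, 5.16, 5.80 and 6.44 in TKO, and at 6.92, 6.21, 6.23, 6.16 and 6.17 in WT, where only TKO 5 reached into the WT range (fold 0.672, 95% interval 0.476 to 0.948, limma adjusted p = 0.173). The log2 change of -0.57 was -0.29 without TKO 3 and -0.81 without WT 3, and with the replicate number as a block it was called (-0.68, limma adjusted p = 0.0238, over all alternatives up to 0.591). The hair shaft keratin Krt33b was at 5.51, 5.62, 5.96, 5.74 and 6.22 in TKO, and at 5.52, 5.11, 5.42, 5.27 and 5.63 in WT (fold 1.31, 1.03 to 1.66, limma adjusted p = 0.183). It was the 1 keratin with an unadjusted p below 0.05 that was higher in TKO. Krt83, another shaft keratin, was at 5.47 ± 0.11 in TKO and 5.80 ± 0.38 in WT (limma adjusted p = 0.204), while Krt39 and Krt40 had log2 changes of -0.20 each. Krt34, the second most variable of the class, was at 7.18 ± 0.33 in TKO and 7.19 ± 0.24 in WT. Hair shaft keratins are close copies of one another, so their probe sets may share signal, which was not tested.

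Among the 7 keratins outside these classes, 6 had a change below 0, with a median of -0.30. Krt80, a type II keratin of differentiating epithelia, had the smallest p of the family. It was at 6.97, 7.28, 6.91, 7.34 and 7.31 in TKO, and at 7.52, 7.52, 7.68, 7.72 and 6.86 in WT. All WT embryos but WT 5 lay above every TKO embryo (fold 0.741, 95% interval 0.595 to 0.923, limma adjusted p = 0.110), and without WT 5 the call was made (log2 change -0.54, limma adjusted p = 0.00459, over all alternatives up to 0.360), as it was for Krt83 (-0.51, limma adjusted p = 0.0238, up to 0.554). Krt88 was at 5.33 ± 0.18 in TKO and 5.61 ± 0.10 in WT (limma adjusted p = 0.137). Krt42, a type I keratin known from the mouse nail, was at 6.19 ± 0.24 in TKO and 6.43 ± 0.14 in WT (limma adjusted p = 0.162). Krt23, a type I keratin, was at 6.96 ± 0.27 in TKO and 7.36 ± 0.28 in WT (limma adjusted p = 0.285). Krt24 had a log2 change of -0.15, Krt90 of -0.10 and Krt222 of 0.0019.

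**Figure D4:**
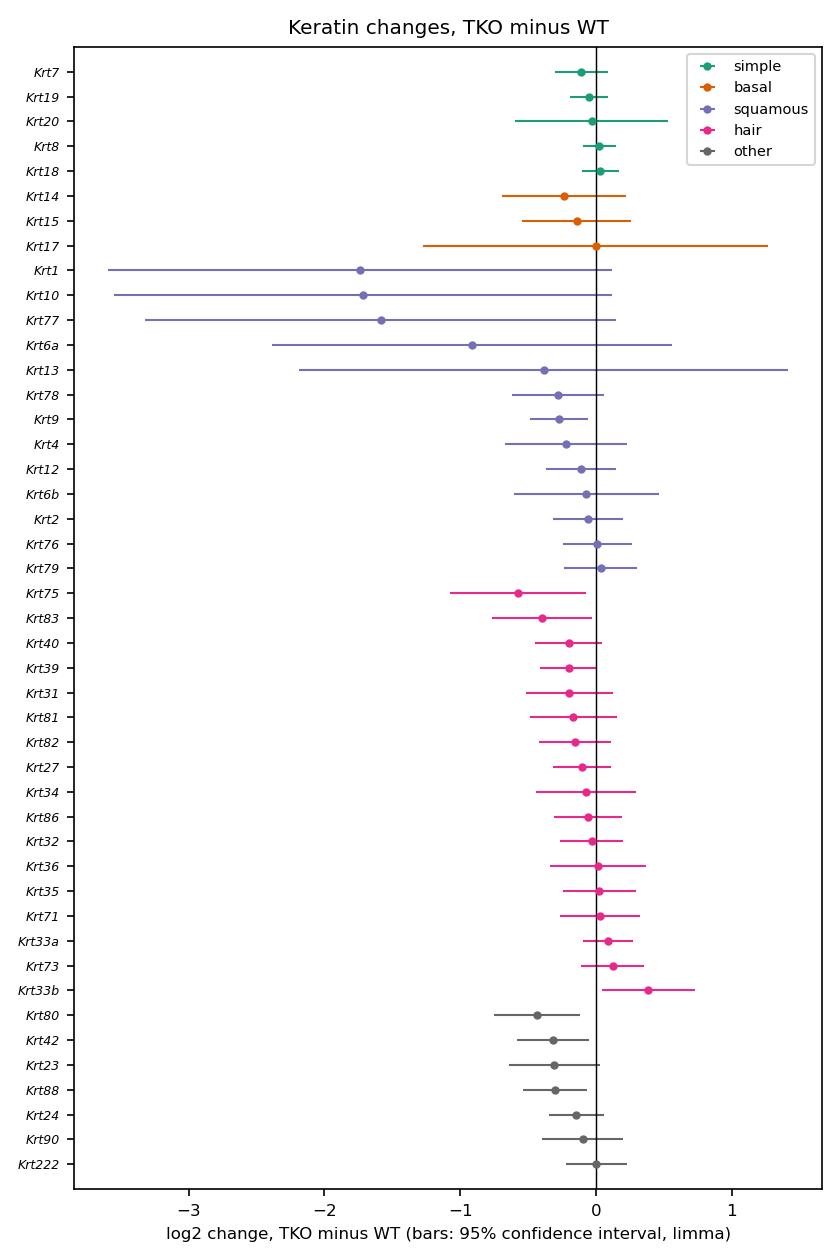
Log2 change in TKO minus WT (horizontal axis, with 95% confidence intervals from limma) of the 45 keratins tested (rows, coloured by class). The intervals of Krt8, Krt18 and Krt19 are the narrow ones around 0, those of Krt1, Krt10, Krt77, Krt13, Krt6a and Krt17 are the widest, and none of the 45 passed the adjusted threshold.

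Genes that act with the keratin filament were set beside it. Of 13 tested genes of other intermediate filaments none passed limma's threshold, with 3 at an unadjusted p below 0.05 (23.1%, against 20.9% of all genes). The mesenchymal filament gene Vim came nearest, at 8.99 ± 0.21 in TKO and 9.26 ± 0.14 in WT (log2 change -0.36, limma adjusted p = 0.0510), followed by the muscle gene Des (-0.40, limma adjusted p = 0.169). Of 19 tested desmosome and plakin genes, which tie keratin filaments to cell contacts, 1 rose and none fell, where 4.39% of all genes rose and 1.12% fell. Pkp2, the plakophilin of simple epithelia and heart, was at 7.26, 7.15, 7.21, 7.18 and 7.06 in TKO and at 6.82, 6.78, 6.97, 6.90 and 6.92 in WT, and the genotypes did not overlap (log2 change 0.30, limma adjusted p = 0.0416). The epidermal desmoglein gene Dsg1a was at 6.24, 4.12, 4.26, 5.31 and 6.08 in TKO and at 6.74, 8.32, 6.18, 7.40 and 6.15 in WT (log2 change -1.58, limma adjusted p = 0.113), and the periplakin gene Ppl had a log2 change of -0.74 (limma adjusted p = 0.122). The list's median change was -0.31 with 16 of 19 below 0, and 13 of the 19 (68.4%) had their highest value in WT 2 or WT 4, against 19.0% of all genes. This share was also 57.9% for the keratin gene regulators, 55.6% for the hair gene regulators and 47.1% for the hair keratins tested. It was 7.69% for the other intermediate filament genes and for the epithelial identity markers.

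Of 19 tested regulators of keratin genes 1 rose and 1 fell, against 5.51% of all genes called in either direction. Ovol2, a zinc finger repressor that holds epithelial identity, was at 7.03, 7.10, 7.13, 7.06 and 7.07 in TKO and at 6.71, 6.66, 6.52, 6.79 and 6.79 in WT (log2 change 0.42, limma adjusted p = 0.00848). Every TKO embryo lay above every WT embryo. The homeobox gene Barx2 was at 5.73, 5.88, 5.72, 6.16 and 6.37 in TKO and at 6.64, 7.17, 6.67, 6.53 and 6.16 in WT, where TKO 5 and WT 5 overlapped (log2 change -0.77, limma adjusted p = 0.0318). Grhl2 (-0.21, limma adjusted p = 0.0702) and Gata3 (-0.41, limma adjusted p = 0.122) did not pass. None of 9 tested regulators of hair genes passed limma's threshold, with 2 at an unadjusted p below 0.05 (22.2%, against 20.9% of all genes), Gata3 and Lef1 (log2 change -0.56, limma adjusted p = 0.233). The calls of Pkp2, Cstb and Barx2 were lost in 12, 10 and 8 of 22 alternative settings, that of Ovol2 in 2, and all 4 kept their direction in every one.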

How the data were processed

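The deposited values of 10 arrays, 1 per embryo, are on the log2 scale (1.50 to 13.7) and were made by the authors with RMA in Affymetrix Expression Console, per the labels and the submitters' processing notes. Sources used here do not give program version or genome build. Of 41345 probe sets, 23521 carried 1 platform symbol, 1814 several and 16010 none. Each of the 22180 genes was read from its brightest probe set on average (Krt18 alone among keratins had 2), and 16635 genes at or above the 25th percentile were tested. TKO minus WT was fitted with limma 3.58.1 (R 4.3.3) with labelled sex, an intensity trend and Benjamini-Hochberg adjustment over all genes. The script was tested on simulated data. Replicates are separate embryos by label, and 5 arrays per genotype limit the precision.

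Keratins and lists were chosen with earlier results of these data known. Named were all tested simple and basal keratins, the 5 with the smallest p and the 2 with the largest SD in each other class, and in each list the genes past the threshold and the next 2. Krt4, Krt6a, Krt13 and other keratins given by range were named after their values were seen.

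Correlations over the 10 embryos used 100000 permutations, two-sided. Alternatives changed sex, the replicate block, filter, scaling, variance model, weights, probe set and the arrays included.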

Additional observations from a re-analysis of the deposited data

Results flagged for a closer look

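Among 90 sets of 5 arrays (45 keratins in 2 genotypes), 4 held 1 embryo far from the other 4, where chance gives about 1 in 20. For Krt75, WT 1 was at 6.92 and the other WT embryos between 6.16 and 6.23, a gap of 0.907 of the group's whole range. For Krt80, WT 5 was at 6.86 and the other WT embryos between 7.52 and 7.72 (0.759 of the range). Krt7 was at 8.15 in TKO 3 and between 8.33 and 8.39 in the other TKO embryos (0.756). For Krt27, a keratin of the inner root sheath, TKO 1 was at 5.12 and the other TKO embryos were between 4.80 and 4.89 (0.728).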

How the results depend on the processing

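The count of keratins called was 0 in 20 of 22 alternatives, also with no filter, where all 53 were tested. With the replicate number as a block it was 1, Krt75 (log2 change -0.68, limma adjusted p = 0.0238, over all alternatives up to 0.591), and with 1 embryo left out it ran from 0 to 2, and the 2 (Krt80 and Krt83) came without WT 5. Over all genes 916 were called, 56 with females only, and 210 to 1284 with 1 embryo left out: 210 without WT 3, 307 without TKO 3 and 552 without TKO 1. The block called 1053 genes. Deviations of same-numbered embryos from their genotype's mean had correlations of -0.127 to 0.379, and number 4 alone correlated best with its own number. This check was not adjusted for sex and cannot tell whether same-numbered embryos shared a batch or a litter. The sign of small changes turned: Krt17 was at 0.0235 without sex and 0.029 with arrays centred on the median, and Krt20 at 0.0242 with quantile normalization again. With 1 embryo left out, the log2 change ran from -1.40 to 0.25 for Krt13, -0.40 to 0.0569 for Krt15, -0.76 to 0.45 for Krt17, -0.0059 to 0.0808 for Krt18, -0.29 to 0.13 for Krt20 and -0.26 to 0.14 for Krt34. For Krt10 it was -2.69 without TKO 1 and -0.87 without TKO 3, for Krt1 -2.65 and -0.88, for Krt77 -2.23 and -0.85, and for Krt6a -1.85 without WT 3 and -0.29 without TKO 3. With the filter at the 50th percentile the median change was -1.25 for the squamous keratins that stayed, since fewer members were tested. Leaving out WT 3 ended the calls of Pkp2, Cstb, Barx2 and Ovol2, as did females only, and TKO 1, 2 and 3 and WT 1 and 4 ended the first 3, with TKO 4 and WT 2 too for Pkp2. Leaving out WT 3 or TKO 1 ended the calls of Col3a1, Tie1, Tnnt3 and Cfap43. WT 3 was the only WT male, so with sex in the model the changes without it came from the females alone. They equalled those of females only (log2 change of Krt14 -0.56 in both settings, and of Krt6a -1.85). TKO 1 and TKO 3 were the only TKO females. Beyond that, the cause of these shifts was not tested. Dim probe sets have no detection call here.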

Other observations

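The genes whose levels over the 10 embryos were most like those of Krt10 were named by their Pearson r, a rule chosen after the values were seen, with gene models, microRNAs and olfactory receptors left out. The 12 with the highest r were Krt1 (0.988), the stefin genes Stfa3 (0.983) and Stfa1 (0.982), Krt77 (0.980), the calmodulin-like gene Calm4 (0.977), the loricrin gene Lor (0.959), the desmocollin gene Dsc1 (0.948), Gpx3 (0.945), Sbsn (0.939), the hornerin gene Hrnr (0.938), the involucrin gene Ivl (0.936) and Aox4 (0.935). Lor, Sbsn, Hrnr and Ivl are members of the cornified envelope list, and Dsc1 of the desmosome list. Stfa3 had a range of 6.78 over the embryos, at 9.79, 4.36, 4.55, 7.43 and 5.63 in TKO 1 to TKO 5 and 5.67, 11.05, 10.00, 11.13 and 8.91 in WT 1 to WT 5. None of the 12 passed between the genotypes (the smallest limma adjusted p was 0.240, for Stfa3).

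Among the 12 genes most like Krt6a, those with a range above 1 on the log2 scale were the desmoglein gene Dsg3 (r = 0.935), Foxq1 (0.924), Krt14 (0.910) and Calml3 (0.901). Most of the 12 had smaller ranges. They were Mybphl, which had the highest r (0.939, range 0.431), Apol9a (0.919), Dusp9 (0.916), Slc39a8 (0.910), Rhob (0.902), Lratd1 (0.893), Rplp1 (0.892) and Zyx (0.890). Dsg3 was at 4.64, 4.64, 4.70, 5.57 and 7.97 in TKO 1 to TKO 5 and at 8.14, 6.43, 4.79, 5.51 and 5.64 in WT 1 to WT 5, with WT 1 and TKO 5 highest as for Krt6a.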
